A study of Homo sapiens with 24 samples.

Results

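Expression of 9 genes for enzymes of the tricarboxylic acid (TCA) cycle and for the isocitrate dehydrogenases was followed across 6 groups of AGS cells. The genes were CS, ACO1, IDH1, IDH2, IDH3A, OGDH, SUCLA2, FH and MDH2. They were picked by gene symbol, with earlier results of these data known. All 9 were found among the 23368 genes of the count table and among the 13947 genes with enough reads to be tested. A list of 13 other genes of the cycle is described separately below. AGS is an established line of human gastric adenocarcinoma, labelled wild type and grown in Ham's F12 medium with fetal calf serum. RNA was sequenced 24 h after exposure in 4 biological replicates per group. Control cells received no inhibitor, and whether solvent was added is not stated in the labels. The single agents were PI103, which inhibits PI3 kinases and mTOR, at 0.7 µM, PD0325901, which inhibits MEK, at 0.035 µM, and the TAK1 inhibitor (5Z)-7-oxozeaenol, called oxozeaenol from here on, at 0.5 µM. In the remaining groups PI103 was combined with oxozeaenol (the oxozeaenol combination) or with PD0325901 (the PD0325901 combination), each agent at 50% of its single dose. Results therefore hold for 1 cell line, 1 time point and 1 dose of each single agent.

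The TCA cycle joins acetyl-CoA to oxaloacetate to make citrate, then oxidises citrate stepwise back to oxaloacetate, feeding electrons to the respiratory chain and carbon to lipid and amino acid synthesis. Several steps have more than one enzyme. IDH3, whose catalytic subunit is coded by IDH3A, makes NADH in the mitochondrial matrix, whereas IDH2 in mitochondria and IDH1 in the cytosol and peroxisomes make NADPH from the same substrate and can run in reverse. ACO1 likewise codes for the cytosolic aconitase, which without its iron-sulfur cluster binds mRNAs as an iron regulatory protein.

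Reads counted in genes numbered 38.1 to 84.2 M per library. Levels are given as counts-per-million values (CPM) scaled by the trimmed mean of M values (TMM), so each is a share of a library's mRNA, and a change in total mRNA per cell or in the number of cells cannot be seen on this scale. A gene is said to have risen, fallen or differed where edgeR's quasi-likelihood test gave a Benjamini-Hochberg adjusted p under 0.05 over all tested genes of that comparison. Fold changes are on the log2 scale with their standard errors (SE). All 6 epithelial markers were high in every library: EPCAM lay between 620 and 988 CPM, KRT8 between 2115 and 3587 CPM, and the lowest, CDH17, between 106 and 376 CPM. Of the fibroblast, leukocyte and endothelial markers, COL1A2 was at 0 in 21 libraries, and DCN, CD3E and CDH5 were at 0 in 22, while PDGFRB, PTPRC, PECAM1 and VWF stayed at or below 0.308 CPM. COL1A1 was detected at 7.93 to 34.2 CPM and CD68 at 0.617 to 3.50 CPM; their part in the results was not tested. All 5 treatments were compared with the same 4 control libraries.

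The promoter sequences of 4 members are shown because these genes gave the contrasting patterns described below: IDH1 moved in opposite directions with different agents, whereas CS, FH and IDH3A were lowered. Each stretch was read from RefSeq, build GRCh38.p14, on the gene's own strand, from the window of 250 bases before the outermost RefSeq start, leaving out bases inside any annotated exon. Capitals mark the CCAAT box, CCAAT or its complement ATTGG. Stretches lie at chr2:208255134-208255246 (minus strand) for IDH1, chr12:56300393-56300580 (minus strand) for CS, chr1:241519762-241520005 (minus strand) for FH and chr15:78149112-78149320 (plus strand) for IDH3A. RefSeq and GENCODE place the outermost start differently in some genes: the stretches of IDH1 and IDH3A lie 10.8 kb and 17.6 kb inside the GENCODE gene whose coordinates are given below, and that of SUCLA2, not printed, 36.6 kb inside it.
IDH1: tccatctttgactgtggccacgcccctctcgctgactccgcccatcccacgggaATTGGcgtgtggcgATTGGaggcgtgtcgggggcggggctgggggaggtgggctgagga
CS: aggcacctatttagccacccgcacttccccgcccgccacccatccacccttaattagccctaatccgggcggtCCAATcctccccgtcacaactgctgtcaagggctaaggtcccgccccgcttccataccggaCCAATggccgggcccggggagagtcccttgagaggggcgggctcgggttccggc
FH: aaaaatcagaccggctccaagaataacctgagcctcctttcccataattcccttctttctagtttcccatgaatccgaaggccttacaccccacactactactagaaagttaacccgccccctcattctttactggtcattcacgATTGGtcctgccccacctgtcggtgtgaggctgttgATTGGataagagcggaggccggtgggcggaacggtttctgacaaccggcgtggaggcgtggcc
IDH3A: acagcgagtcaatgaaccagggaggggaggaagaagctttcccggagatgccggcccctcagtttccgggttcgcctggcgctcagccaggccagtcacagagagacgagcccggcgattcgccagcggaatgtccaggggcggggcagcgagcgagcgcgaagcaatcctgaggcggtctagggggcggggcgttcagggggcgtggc

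RefSeq windows were matched for 7 of the 9 members, not for IDH2 or OGDH. CCAAT, searched on both strands, was found in 4 of the 7, against 32% of all 35116 promoter windows of this length. It began 177 and 116 bases before the start in CS, 121 and 107 before it in IDH1, 105 and 69 before it in FH, and 208 before it in SUCLA2. The ETS letters CCGGAAG were found in MDH2 (8.52% of all windows). None of the 7 held the E-box CACGTG (6.35%), the FOXO letters GTAAACA (2.98%), the NRF1 letters GCATGCGC (2.63%) or the sterol regulatory element TCACNCCAC (0.883%). No motif searched is contained in another, all were searched on both strands, and a match is a description of letters only. CS, FH and SUCLA2, each with a CCAAT match, fell and did not rise with any treatment. IDH1, also with a match, fell with PI103 and rose with PD0325901, oxozeaenol and the PD0325901 combination. ACO1, which rose, and IDH3A and MDH2, which fell, had no match.

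In control cells the members spanned a wide range of levels. Per kilobase of annotated exon, IDH1 was the most abundant at 120.4 ± 8.74 CPM per kb (SD, n = 4), followed by FH at 102 ± 3.10. MDH2 at 52.7 ± 3.06 and CS at 52.3 ± 5.46 CPM per kb were within each other's spread. SUCLA2 stood at 25.1 ± 1.46, OGDH at 15.3 ± 2.44, IDH3A at 14.1 ± 0.850, ACO1 at 12.1 ± 1.14 and IDH2, the least abundant, at 8.92 ± 0.276 CPM per kb. OGDH, IDH3A and ACO1 lay close together, while the cytosolic IDH1 was far above the mitochondrial IDH2. The least covered value of any member was 1322 reads, for IDH2. Replicates were tight: the median coefficient of variation within groups ran from 6.53% for FH to 12.8% for ACO1, beside 10.6% over all tested genes.

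Counted over the 9 members, PI103 raised 1 and lowered 5, where 26.2% of all tested genes rose and 25.2% fell. PD0325901 raised 4 and lowered 4 (28.7% and 29.9% of all tested genes). Oxozeaenol raised 4 and lowered 2 (25.7% and 26.1%). PI103 with oxozeaenol raised 2 and lowered 5 (27.7% and 27.9%). PI103 with PD0325901 changed all 9, raising 4 and lowering 5 (32.2% and 32.6%). The median log2 fold change of the members was -0.26 under PI103 (0.02 over all tested genes), -0.11 under PD0325901 (-0.02), -0.07 under oxozeaenol (0.02), -0.27 in the oxozeaenol combination (0.02) and -0.49 in the PD0325901 combination (0.0050). Of the 45 comparisons, 36 passed the test, and in each of these the difference had the same sign in all 4 batches, which are the labels' replicate numbers. Treated and control libraries did not overlap in 31 of the 36. Both counts were taken among comparisons that had already passed, and the same shares over all tested genes were not computed. A stricter test that asked for a change beyond 0.3 on the log2 scale (glmTreat) left 4 members for PI103, 5 for PD0325901, 2 for oxozeaenol, 3 for the oxozeaenol combination and 6 for the PD0325901 combination. The shares of all tested genes under this stricter test were not computed either.

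**Figure D1:**
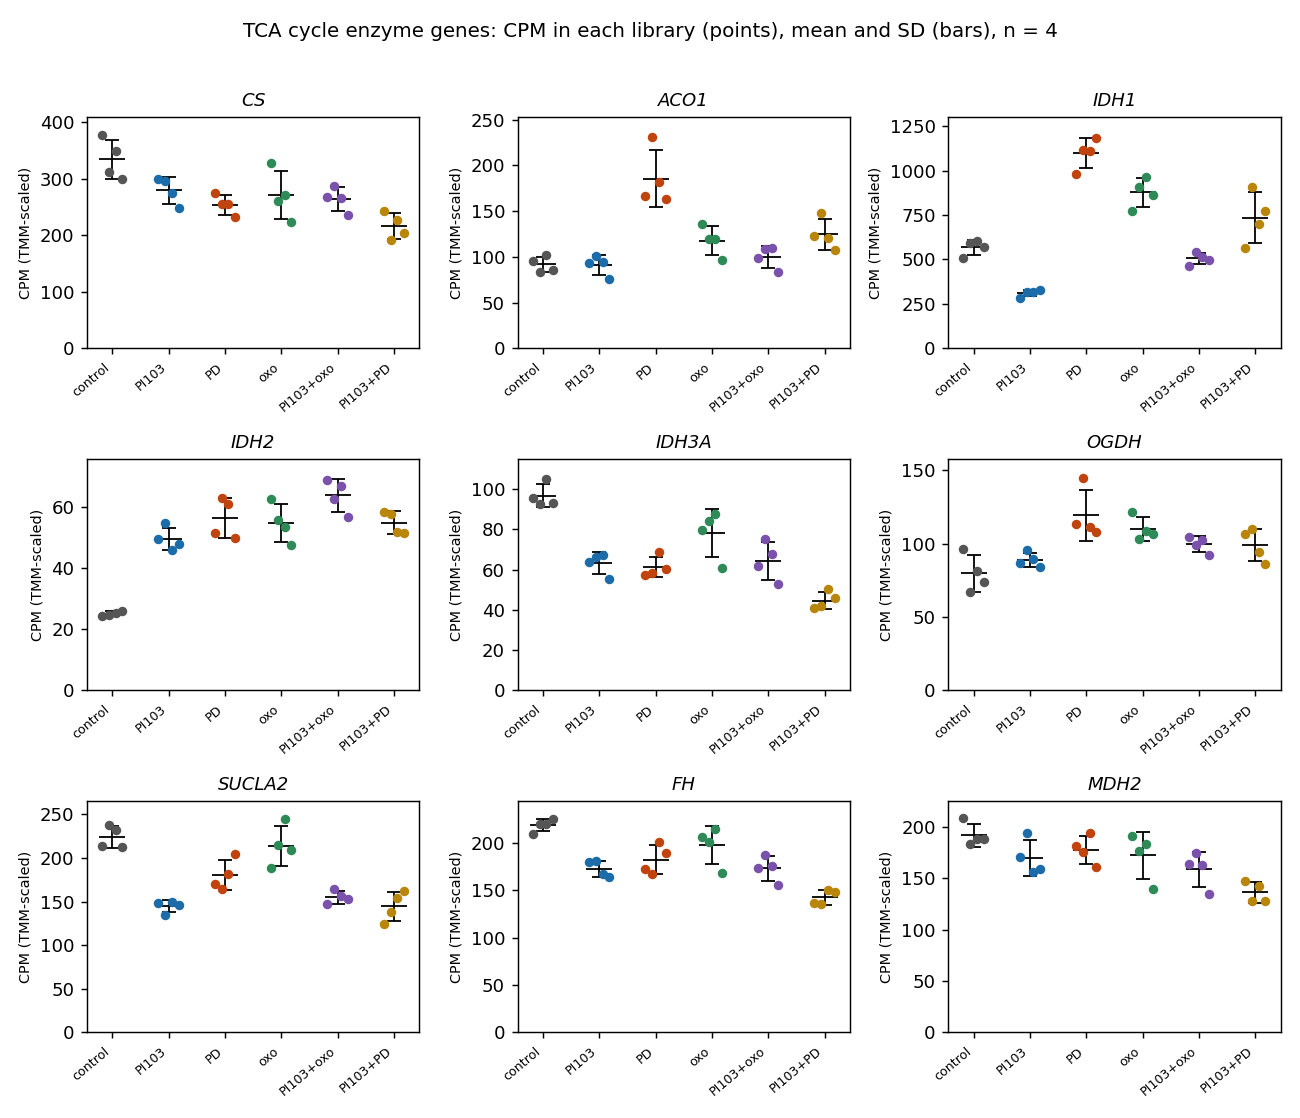
Level of each of the 9 genes in each library, in TMM-scaled CPM (vertical axes start at 0 and differ between panels); points are libraries, bars the mean and SD of 4, and PD and oxo stand for PD0325901 and oxozeaenol. IDH2 lies above the highest control library in 20 of 20 treated libraries and IDH3A below the lowest in 20 of 20, while IDH1 lies below the controls with PI103 and above them with PD0325901 and oxozeaenol.

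**Figure D2:**
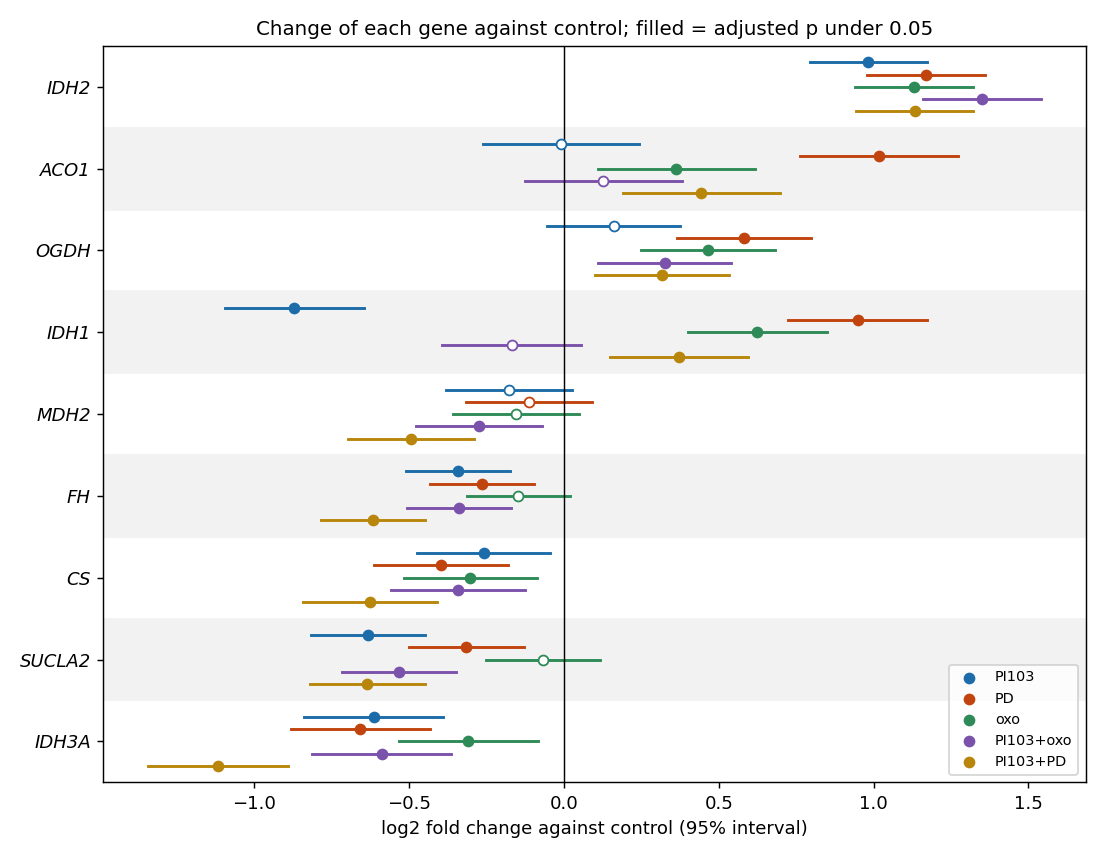
Log2 fold change of each gene against control (horizontal axis), 1 line per treatment, with 95% intervals; filled points have an adjusted p under 0.05. IDH2 is higher with all 5 treatments and CS and IDH3A lower with all 5, and the points of IDH1 run from -0.87 with PI103 to 0.95 with PD0325901.

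CS codes for citrate synthase, which makes citrate from oxaloacetate and acetyl-CoA and so opens the cycle (chr12:56271699-56300392, minus strand, GRCh38). It fell with all 5 treatments. Control libraries held 377, 312, 349 and 300.3 CPM (335 ± 34.9 CPM, SD, n = 4). Values with PI103 were 299, 296, 275 and 248 (log2 fold change -0.26, SE 0.10, adjusted p 0.0413). PD0325901 gave 275, 255, 255 and 232 CPM (log2 fold change -0.40, SE 0.11, adjusted p 0.00215). Neither group overlapped with the controls. Oxozeaenol gave 328, 261, 272 and 224 CPM, with replicate 1 inside the control range (log2 fold change -0.30, SE 0.11, adjusted p 0.0184). The oxozeaenol combination gave 267, 286, 267 and 235 CPM (log2 fold change -0.34, SE 0.11, adjusted p 0.00758). The lowest group was PI103 with PD0325901 at 244, 192, 227 and 205 CPM, a 1.54-fold reduction (log2 fold change -0.63, SE 0.11, adjusted p 1.09e-05), with every library below all of the controls. With PI103 the call was lost on leaving out control replicate 1 (-0.20, adjusted p 0.151), control replicate 3 (-0.24, adjusted p 0.089), PI103 replicate 3 (-0.25, adjusted p 0.0801) or PI103 replicate 4 (-0.21, adjusted p 0.14), and with scaling by total counts (-0.19, adjusted p 0.156). With oxozeaenol it was lost without control replicate 1 (-0.23, adjusted p 0.0864), control replicate 3 (-0.28, adjusted p 0.0548), oxozeaenol replicate 2 (-0.28, adjusted p 0.0501) or oxozeaenol replicate 4 (-0.22, adjusted p 0.0906), and with only these 2 groups in the fit (-0.29, adjusted p 0.0613). Of its exon length, 3.44% is shared with AC073896.1 on the same strand.

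ACO1, the cytosolic aconitase gene (chr9:32384603-32454769, plus strand), rose most with the MEK inhibitor. Control libraries held 95.8, 83.8, 102 and 85.1 CPM (91.6 ± 8.63 CPM, SD, n = 4). With PD0325901 the values were 167, 231, 182 and 163 CPM, 2.02-fold higher than control (log2 fold change 1.02, SE 0.12, adjusted p 1.24e-07). All 4 lay above every control library, with replicate 2 the highest. PI103 gave 93.5, 101, 94.2 and 75.9 CPM, which overlapped with the controls (log2 fold change -0.01, SE 0.12, adjusted p 0.955, 95% interval -0.26 to 0.24). PI103 with PD0325901, each at a lower dose than alone, gave 123, 147, 121 and 107 CPM (log2 fold change 0.44, SE 0.12, adjusted p 0.00273). These values lay above all controls and below all libraries with PD0325901 alone. Whether the presence of PI103 or the lower dose of PD0325901 made this difference from PD0325901 alone was not tested. Oxozeaenol gave 136, 119, 119.8 and 96.7 CPM (log2 fold change 0.36, SE 0.12, adjusted p 0.0157), with replicate 4 inside the control range. That call was lost without oxozeaenol replicate 1 (0.28, adjusted p 0.0794). PI103 with oxozeaenol gave 98.9, 109, 109.6 and 83.3 CPM and overlapped with the controls (log2 fold change 0.13, SE 0.12, adjusted p 0.391).

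IDH1 (chr2:208236227-208266074, minus strand), whose product makes NADPH outside mitochondria, changed in opposite directions with different inhibitors. Control libraries held 511, 593, 603 and 568 CPM (569 ± 41.3 CPM, SD, n = 4). PI103 lowered it to 284, 315, 317 and 329 CPM, 1.83-fold lower (log2 fold change -0.87, SE 0.11, adjusted p 3.07e-07). PD0325901 raised it to 980.3, 1116, 1109 and 1182 CPM, 1.93-fold higher (log2 fold change 0.95, SE 0.11, adjusted p 5.07e-08). Neither group overlapped with the controls, so the agents moved this gene apart from a common starting level. Oxozeaenol raised IDH1 to 770.0, 911, 966 and 862 CPM (log2 fold change 0.63, SE 0.11, adjusted p 3.27e-05), again with no overlap. PI103 with oxozeaenol gave 464, 543, 516 and 499.7 CPM, overlapping with the controls (log2 fold change -0.17, SE 0.11, adjusted p 0.192, 95% interval -0.39 to 0.05). PI103 with PD0325901 gave 564, 910.4, 698 and 770.1 CPM (log2 fold change 0.37, SE 0.11, adjusted p 0.00421). This was the most variable group of the gene, with replicate 1 inside the control range and replicate 2 far above it. In descending order the means were PD0325901 (1097 ± 84.5 CPM), oxozeaenol (877 ± 83.1 CPM), PI103 with PD0325901 (736 ± 145 CPM), control, PI103 with oxozeaenol (506 ± 33 CPM) and PI103 (311 ± 19.2 CPM). Of these neighbours, oxozeaenol and PI103 with PD0325901 did not pass the test (adjusted p 0.0602; 0.00741 with the batch as a replicate block), nor did control and PI103 with oxozeaenol. Oxozeaenol was below PD0325901 (log2 fold change -0.32, SE 0.11, adjusted p 0.0277), but this call was lost without PD0325901 replicate 3 (-0.31, adjusted p 0.0529) or 4 (-0.29, adjusted p 0.0653) or oxozeaenol replicate 1 (-0.30, adjusted p 0.0597) or 4 (-0.31, adjusted p 0.0525). The antisense gene IDH1-AS1 covers 1.99% of the exon length of IDH1.

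IDH2 (chr15:90083045-90102504, minus strand), which makes NADPH inside mitochondria, rose with every treatment, between 1.98-fold and 2.55-fold. Control libraries held 24.3, 24.6, 25.5 and 26 CPM (25.1 ± 0.778 CPM, SD, n = 4). PI103 gave 49.6, 54.7, 46 and 48.1 CPM (log2 fold change 0.98, SE 0.09, adjusted p 2.28e-09). PD0325901 gave 51.7, 63.1, 61.2 and 49.9 CPM (log2 fold change 1.17, SE 0.09, adjusted p 7.09e-11). Neither group overlapped with the controls, and all 20 treated libraries of the 5 treatments lay above the highest control. Oxozeaenol gave 62.9, 55.8, 53.4 and 47.7 CPM (log2 fold change 1.13, SE 0.09, adjusted p 2.62e-10). PI103 with PD0325901 gave 58.6, 57.9, 52 and 51.7 CPM (log2 fold change 1.13, SE 0.09, adjusted p 7.08e-11). The highest group was PI103 with oxozeaenol, at 69.1, 62.9, 66.9 and 57 CPM and 2.55-fold above control (log2 fold change 1.35, SE 0.09, adjusted p 8.52e-12). In the order of means no neighbours among the treated groups passed the test (adjusted p 0.121 to 0.987), whereas the lowest of them, PI103, differed from control. The ends of the treated order did differ: PI103 with oxozeaenol was above PI103 alone (log2 fold change 0.37, SE 0.09, adjusted p 0.00489).

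IDH3A (chr15:78131498-78171949, plus strand), the catalytic subunit of the NAD-dependent enzyme of the cycle itself, fell with every treatment. Control libraries held 95.7, 92.5, 105 and 93.2 CPM (96.6 ± 5.81 CPM, SD, n = 4). PI103 gave 63.8, 66.4, 67 and 55.4 CPM (log2 fold change -0.61, SE 0.11, adjusted p 3.96e-05). PD0325901 gave 57.5, 58.4, 68.6 and 60.4 CPM (log2 fold change -0.66, SE 0.11, adjusted p 1.17e-05). These falls were 1.53-fold and 1.58-fold with no overlap with the controls, and the difference between the agents had a 95% interval of -0.27 to 0.18 (adjusted p 0.772). Their combination gave 40.7, 41.8, 50.1 and 45.7 CPM, 2.17-fold lower than control (log2 fold change -1.12, SE 0.11, adjusted p 2.23e-09). Each library of the combination lay below every library of either single agent. Oxozeaenol gave 79.7, 84.2, 87.6 and 60.8 CPM (log2 fold change -0.31, SE 0.11, adjusted p 0.0197), where replicate 4 was the lowest, and the call was lost without it (-0.21, adjusted p 0.108) or without control replicate 3 (-0.26, adjusted p 0.0746). The oxozeaenol combination stood at 61.5, 75.2, 67.8 and 52.7 CPM (log2 fold change -0.59, SE 0.11, adjusted p 5.77e-05). In all, 20 of 20 treated libraries lay below the lowest control. In the annotation, 38.9% of the exon length of IDH3A lies opposite exons of ACSBG1 and CIB2 on the other strand. The libraries were stranded, but whether the counting used the strand is not given in the sources used here.

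The other subunits of the NAD-dependent enzyme did not move with IDH3A throughout. IDH3G rose with all 5 treatments (highest adjusted p 0.0477), from 23.1 ± 1.85 CPM to 33.3 ± 2.34 with PD0325901 (log2 fold change 0.53, adjusted p 3.22e-05) and by 0.22 to 0.31 on the log2 scale with the other 4. IDH3B fell with PI103 and oxozeaenol (-0.22, adjusted p 0.0128) and with PI103 and PD0325901 (-0.31, adjusted p 0.000571), and had log2 fold changes of -0.06, -0.07 and -0.13 with PI103, PD0325901 and oxozeaenol. These 2 genes fall outside the rule for named genes and were picked after their values were seen, as partners of IDH3A. Of the exon length of IDH3G, 10.2% lies opposite SSR4.

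OGDH (chr7:44606572-44709066, plus strand) codes for the first enzyme of the 2-oxoglutarate dehydrogenase complex. Control libraries were spread, at 96.5, 66.7, 81.2 and 74.2 CPM (79.7 ± 12.7 CPM, SD, n = 4). PD0325901 gave 113, 145, 111 and 108 CPM (log2 fold change 0.58, SE 0.11, adjusted p 3.58e-05), all above the controls, with replicate 2 standing apart. Oxozeaenol gave 122, 103, 108 and 106 CPM (log2 fold change 0.47, SE 0.11, adjusted p 0.000619), also all above the controls. PI103 gave 87, 95.4, 89.9 and 84 CPM, inside the control range (log2 fold change 0.16, SE 0.10, adjusted p 0.207), and passed only when control replicate 1 was left out (0.27, adjusted p 0.0376). PI103 with oxozeaenol gave 105, 99.3, 103 and 92.4 CPM (log2 fold change 0.33, SE 0.10, adjusted p 0.0105), and PI103 with PD0325901 gave 107, 110.0, 94.5 and 85.9 CPM (log2 fold change 0.32, SE 0.10, adjusted p 0.0103). Both combinations overlapped with the controls, and both calls were lost without control replicate 2 (0.25, adjusted p 0.0574, and 0.24, adjusted p 0.061). Ordered by mean, no 2 neighbouring groups of OGDH passed the test against each other.

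SUCLA2 (chr13:47745736-48037968, minus strand) codes for the subunit that makes succinyl-CoA synthetase form ATP. It fell with every treatment except oxozeaenol alone. Control libraries held 213, 238, 232 and 213 CPM (224 ± 13 CPM, SD, n = 4). PI103 gave 148, 134, 149.9 and 146 CPM, 1.55-fold lower (log2 fold change -0.63, SE 0.09, adjusted p 2.01e-06). With the oxozeaenol combination the values were 147, 164, 157 and 153 CPM (log2 fold change -0.53, SE 0.09, adjusted p 1.8e-05). PI103 with PD0325901 gave 124, 138, 154 and 162 CPM (log2 fold change -0.63, SE 0.09, adjusted p 9.71e-07). All 12 of these libraries lay below every control. PD0325901 alone gave 170.5, 165, 181 and 204 CPM (log2 fold change -0.31, SE 0.09, adjusted p 0.00401), also below every control and above PI103 (log2 fold change 0.32, SE 0.09, adjusted p 0.00546). Oxozeaenol alone gave 188, 215, 244 and 209 CPM, spanning the control range on both sides (log2 fold change -0.07, SE 0.09, adjusted p 0.555, 95% interval -0.25 to 0.12). PI103 and oxozeaenol differed from each other (log2 fold change 0.57, SE 0.09, adjusted p 1.65e-05 for oxozeaenol against PI103). SUCLA2 has 3 processed pseudogenes in the annotation, and reads shared with them could have been lost or moved in counting.

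FH (chr1:241497603-241519761, minus strand) codes for fumarase, which hydrates fumarate to malate. It was one of the steadiest members within groups, and it fell with 4 of the 5 treatments. Control libraries held 210.1, 220.3, 221 and 226 CPM (219 ± 6.64 CPM, SD, n = 4). PI103 gave 179.6, 181, 168 and 164 CPM (log2 fold change -0.34, SE 0.08, adjusted p 0.00102). PD0325901 gave 173, 168, 201 and 189 CPM (log2 fold change -0.26, SE 0.08, adjusted p 0.00705), a call that was lost without PD0325901 replicate 1 (-0.21, adjusted p 0.0565) or 2 (-0.20, adjusted p 0.0676). Given together, PI103 and PD0325901 lowered FH to 137, 135, 151 and 149 CPM, 1.53-fold below control (log2 fold change -0.62, SE 0.08, adjusted p 3.07e-07). All 4 of these libraries lay below every other library of the gene. In the oxozeaenol combination FH was at 174, 188, 176 and 156 CPM (log2 fold change -0.34, SE 0.08, adjusted p 0.000989), about the level of PI103 alone. Oxozeaenol alone gave 207, 202, 215 and 169 CPM (log2 fold change -0.15, SE 0.08, adjusted p 0.133). Replicate 3 lay inside the control range, replicates 1 and 2 a little below it and replicate 4 further below. One processed pseudogene of FH, FHP1, is annotated.

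MDH2 (chr7:76048051-76067508, plus strand), the mitochondrial malate dehydrogenase that closes the cycle, moved least. Control libraries held 208, 183, 188 and 188 CPM (192 ± 11.2 CPM, SD, n = 4). PI103 gave 171, 194, 156 and 159 CPM (log2 fold change -0.18, SE 0.10, adjusted p 0.141). PD0325901 gave 181, 175, 194 and 160.5 CPM (log2 fold change -0.11, SE 0.10, adjusted p 0.346). Both overlapped with the controls. Oxozeaenol gave 191, 176, 183 and 139 CPM (log2 fold change -0.15, SE 0.10, adjusted p 0.197), overlapping as well. PI103 with PD0325901 lowered MDH2 to 147, 128, 142 and 128 CPM, 1.41-fold below control and with no overlap (log2 fold change -0.49, SE 0.10, adjusted p 0.000103). The oxozeaenol combination held 163, 175, 162 and 134 CPM (log2 fold change -0.27, SE 0.10, adjusted p 0.0209). That smaller fall was lost without control replicate 1 (-0.23, adjusted p 0.0749), without replicate 4 of that combination (-0.20, adjusted p 0.107) and with scaling by total counts (-0.21, adjusted p 0.0746). No 2 neighbours in the order of the MDH2 means passed the test against each other. The lowest pair, the PD0325901 combination against the oxozeaenol combination (adjusted p 0.0938), passed with the replicate block (-0.22, adjusted p 0.0354) and without replicate 4 of the oxozeaenol combination (-0.30, adjusted p 0.031).

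Oxozeaenol replicate 4 was the lowest library of its group for CS, ACO1, IDH2, IDH3A, FH and MDH2, and its part in the results beyond the values given without it was not tested.

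Ratios of paired enzymes within a library were compared because they do not depend on library scaling. Each ratio is the log2 of 1 gene's CPM over the other's, and treatment and control were compared by an exact two-sided permutation test of 4 against 4 libraries, whose smallest p is 0.0286. Of 20 tests described here 14 passed, after adjustment over 25 tests of ratios in all, each at 0.0397, the lowest value this design allowed here.

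IDH1 to IDH2 compares NADPH-forming isocitrate dehydrogenase mRNA outside and inside mitochondria. Control libraries had log2 ratios of 4.39, 4.59, 4.56 and 4.45 (4.50 ± 0.09, SD, n = 4). With PI103 the values were 2.52, 2.52, 2.78 and 2.77, a 3.60-fold lower ratio (difference -1.85). PI103 with oxozeaenol gave 2.75, 3.11, 2.95 and 3.13 (difference -1.51). The balance thus fell furthest where PI103 was given alone or with oxozeaenol. Differences were smaller with PI103 and PD0325901 (-0.78) and with oxozeaenol (-0.50), and these also passed. With PD0325901, where both genes rose, the difference of -0.21 did not pass (exact permutation test, adjusted p 0.13).

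IDH3A to IDH2 compares the NAD-dependent with the NADP-dependent enzyme of mitochondria. Control libraries had log2 ratios of 1.98, 1.91, 2.04 and 1.84. Under all 5 treatments the ratio was lower with no overlap, by 2.72-fold with oxozeaenol, 3.02-fold with PI103, 3.53-fold with PD0325901, 3.85-fold in the oxozeaenol combination and 4.75-fold in the PD0325901 combination. With PI103 and PD0325901 the libraries stood at -0.53, -0.47, -0.05 and -0.18, so fewer reads fell on IDH3A than on IDH2 in all 4, the reverse of control. This order of reads is not corrected for gene length.

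SUCLA2 to SUCLG2 compares the ATP-forming with the GTP-forming subunit of succinyl-CoA synthetase. It fell with all 5 treatments, from 1.14 ± 0.05 in control (SD, n = 4) to 0.70 ± 0.13 with oxozeaenol and 0.15 ± 0.15 with PI103 and PD0325901. MDH2 to MDH1, the mitochondrial over the cytosolic malate dehydrogenase, was -0.41 ± 0.29 in control and passed with none of the 5 treatments. Its differences ran from -0.20 with PI103 to -0.70 with PI103 and PD0325901 (exact permutation test, unadjusted p 0.4 to 0.0571), and all 5 were below 0. Against the control library of the same batch the ratio was lower in all 4 batches in the PD0325901 combination (-0.59, -0.43, -0.82 and -0.96) and with oxozeaenol (-0.42, -0.13, -0.79 and -1.13), and in 3 of 4 with each other treatment. An exact sign-flip test of 4 batch differences gave p = 0.125 for each of the first 2, the smallest it can give, so the pairing could not bring this ratio past the threshold. MDH1 itself rose with oxozeaenol (log2 fold change 0.47, adjusted p 0.0162) and, with the replicate block alone, passed with PD0325901 (0.24, adjusted p 0.0344).

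**Figure D3:**
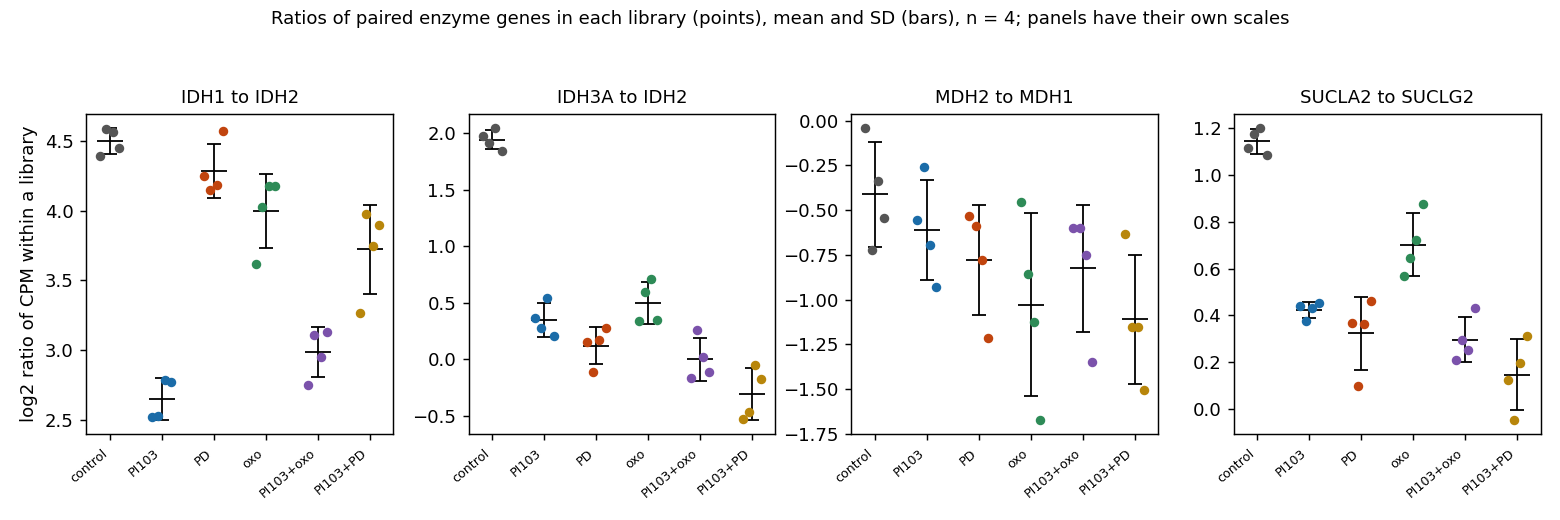
Log2 ratio of CPM within a library for 4 pairs of enzyme genes (vertical axes differ between panels and do not start at 0); points are libraries, bars the mean and SD of 4, and PD and oxo stand for PD0325901 and oxozeaenol. The ratio of IDH3A to IDH2 is near 1.94 in control and below 1 in every treated library, and MDH2 to MDH1 overlaps with control under all 5 treatments.

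Treatments were then compared with each other, 90 comparisons over the 10 pairs of treated groups, of which 40 passed. PD0325901 differed from PI103 for 4 members (44.5% of all tested genes) and oxozeaenol from PI103 for 5 (43.1%; also FH with the replicate block, 0.19, adjusted p 0.0424). All of these differences were in the same direction, higher than with PI103. IDH1 differed most, by 1.82 for PD0325901 (SE 0.11, adjusted p 2.59e-12) and by 1.50 for oxozeaenol (adjusted p 9.13e-11) on the log2 scale. ACO1 was also higher with PD0325901 than with PI103 (log2 fold change 1.03, SE 0.12, adjusted p 2.26e-07). Oxozeaenol and PD0325901 differed for 4 members (28.5%). Of these, ACO1 was lower with oxozeaenol (log2 fold change -0.65, SE 0.12, adjusted p 0.000366), and this held with each library left out in turn. The calls for IDH1, SUCLA2 and IDH3A were lost in 4, 6 and 5 of 8 such fits. SUCLA2 was also lost with scaling by total counts and with no expression filter. Between oxozeaenol and PI103, the calls for ACO1, IDH3A and OGDH were lost in 2, 4 and 2 of 8 fits. That of OGDH was also lost with scaling by total counts.

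Each combination, with both agents at a lower dose than alone, was read against its single agents at their full doses. The part of the lower doses in these differences was not tested. PI103 with oxozeaenol differed from PI103 for 2 members (18.3% of all tested genes), IDH1 (log2 fold change 0.70, SE 0.11, adjusted p 4.06e-05) and IDH2, both higher. It differed from oxozeaenol for 2 (14.9%), IDH1 (log2 fold change -0.79, SE 0.11, adjusted p 2.45e-05) and SUCLA2 (log2 fold change -0.47, SE 0.09, adjusted p 0.00101), both lower, and with the replicate block for IDH3A too (-0.28, adjusted p 0.0238). IDH1 therefore stood between its levels under the single agents. PI103 with PD0325901 differed from PI103 for 6 members (38.7%) and from PD0325901 for 6 (18.1%). ACO1, IDH1, IDH3A, FH and MDH2 passed against both single agents. With the replicate block the count against PD0325901 was 8, the additions being OGDH (-0.27, adjusted p 0.0371) and CS (-0.23, adjusted p 0.0228), so that CS passed against both agents as well. IDH1 again stood between them (1.24 against PI103 and -0.58 against PD0325901 on the log2 scale). So did ACO1 (0.45, adjusted p 0.00483, against PI103 and -0.57, adjusted p 0.00221, against PD0325901). IDH3A was below both (-0.50, adjusted p 0.000731, and -0.46, adjusted p 0.00501), and so was FH (-0.28, adjusted p 0.00876, and -0.35, adjusted p 0.0038). MDH2 was below both as well (-0.32 and -0.38), but its difference from PI103 was lost without PI103 replicate 2 (-0.25, adjusted p 0.0679). PI103 with oxozeaenol differed from PD0325901 for 2 members (36.8%; 4 with the replicate block, which added OGDH at an adjusted p of 0.0295 and SUCLA2 at 0.0293), and PI103 with PD0325901 differed from oxozeaenol for 5 (43.9%). The combinations differed from each other for 4 (29.9%), and with the replicate block for 7, the additions being ACO1 (0.32, adjusted p 0.0074), IDH2 (-0.22, adjusted p 0.0383) and MDH2. Among the 4 were IDH1, which was higher with PD0325901 as the partner (log2 fold change 0.54, SE 0.11, adjusted p 0.000567), and IDH3A, which was lower (log2 fold change -0.53, SE 0.11, adjusted p 0.000719). All percentages given for pairs of treatments are from the fit without the replicate block. Shares of all tested genes with the block were not computed, so the blocked counts have no share to be read against.

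Because each agent was halved in the combinations, each combination was also compared with the mean of its single agents on the log2 scale. PI103 with oxozeaenol differed from that mean for 1 member, where 3.98% of all tested genes did. IDH2 was higher than the mean (log2 fold change 0.29, SE 0.08, adjusted p 0.0288). The call was lost in 6 of 12 fits that left out 1 library, namely replicate 1, 2 or 3 of the combination, PI103 replicate 3 or 4, or oxozeaenol replicate 3 (log2 difference 0.26, adjusted p 0.197, without replicate 1 of the combination; 0.29, adjusted p 0.0519, without PI103 replicate 4). It was also lost with no expression filter (0.28, adjusted p 0.0644). The 95% intervals of the other 8 members ran no further than -0.34 and 0.20.

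PI103 with PD0325901 differed from the mean of its single agents for 5 members, where 22.0% of all tested genes did. IDH3A was lower than the mean (log2 fold change -0.48, SE 0.10, adjusted p 0.00101) and, in its own mean level, below both agents. FH (log2 fold change -0.31, SE 0.07, adjusted p 0.00281) and MDH2 (log2 fold change -0.35, SE 0.09, adjusted p 0.00556) were lower than the mean too. These 3 held with each library left out in turn. CS was lower (log2 fold change -0.30, SE 0.09, adjusted p 0.0215) and IDH1 higher (log2 fold change 0.33, SE 0.09, adjusted p 0.0122) than the mean, and both calls were lost without replicate 2 of the combination (-0.25, adjusted p 0.114 for CS, and 0.21, adjusted p 0.137 for IDH1), which left 3 members. CS was also lost without replicate 4 of the combination (-0.27, adjusted p 0.0679) and with scaling by total counts (-0.25, adjusted p 0.0652). None of the differences from the mean reached beyond 0.3 on the log2 scale in the stricter test, in either combination.

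**Figure D4:**
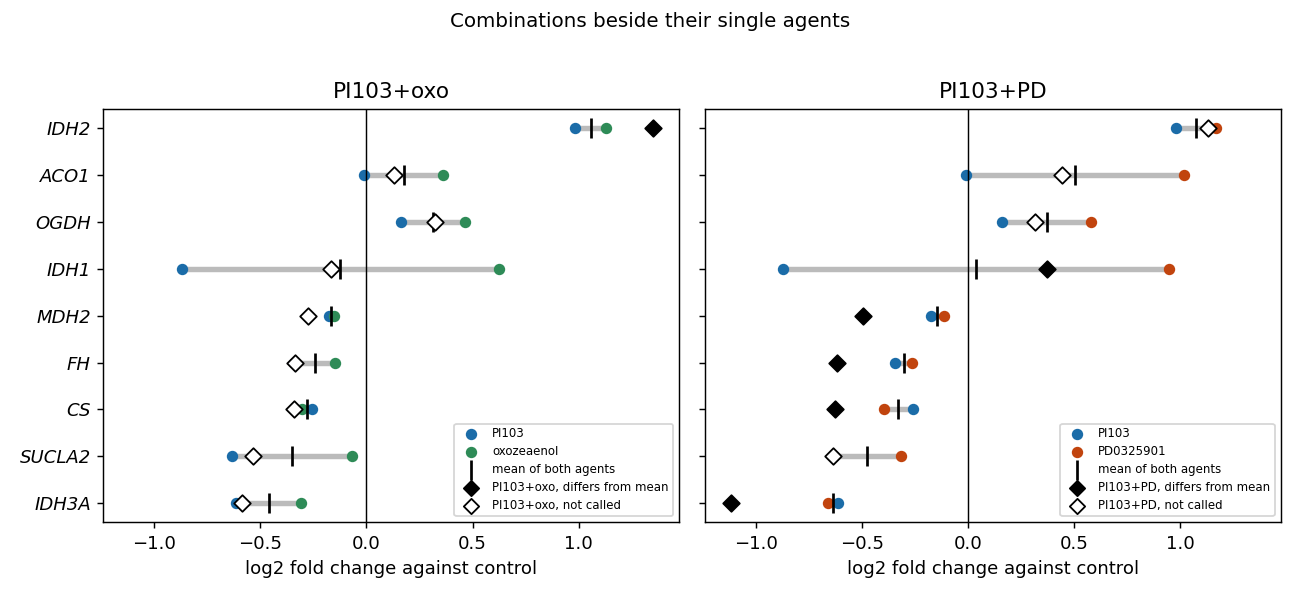
Log2 fold change against control (horizontal axis) for each combination (diamonds) beside its single agents (coloured points) and their mean (vertical tick); a filled diamond differs from the mean at an adjusted p under 0.05. In the right panel IDH3A, FH, MDH2 and CS lie to the left of both single agents, and in the left panel only IDH2 has a filled diamond.

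The likeness of the members' patterns was measured as the root mean square difference of their 6 group means of log2 CPM, each gene centred on its own mean. Among members, FH was nearest to MDH2 (0.0695) and CS to FH (0.0823). SUCLA2 was nearest to FH at 0.125 and IDH3A to FH at 0.159. The genes that rose lay farther apart: ACO1 and OGDH differed by 0.218, IDH2 from OGDH by 0.318, and IDH1 from its nearest member, ACO1, by 0.347. Over all 10031 genes with a mean of at least 5 CPM, 1 gene was nearest to each member, given here for 8 of them. These were DAXX for CS (0.0142), FH with APEH (0.0214), MDH2 with FAHD2A (0.0249), OGDH with FUT8 (0.0262) and SUCLA2 with MCTS1 (0.0303). For IDH2 it was NOTCH3 (0.0697), for ACO1 SLC16A13 (0.0903) and for IDH1 HSPB8 (0.110), so the last 3 had the least close partners. HSPB8, a small heat shock protein gene, was at 50.3 ± 2.61 CPM in control, 33.5 ± 2.70 with PI103 and 98.1 ± 13.0 with PD0325901 (SD, n = 4). These are likenesses over 6 means that share libraries, given as a description.

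The rest of the cycle and its surroundings were read from fixed lists. Of 13 other TCA cycle genes, all tested, 3 rose and 3 fell with PI103, 4 and 2 with PD0325901, 5 and 1 with oxozeaenol, 4 and 4 in the oxozeaenol combination, and 4 and 5 in the PD0325901 combination. These are 23.1% and 23.1% of the list with PI103, where 26.2% of all tested genes rose and 25.2% fell. With PD0325901 they are 30.8% and 15.4% (28.7% and 29.9% of all tested genes), with oxozeaenol 38.5% and 7.69% (25.7% and 26.1%), in the oxozeaenol combination 30.8% and 30.8% (27.7% and 27.9%), and in the PD0325901 combination 30.8% and 38.5% (32.2% and 32.6%). With the replicate block 3 rose and 4 fell with PI103, 5 and 2 with PD0325901, 6 and 2 with oxozeaenol, and 5 and 6 in the oxozeaenol combination. The median log2 fold change of these 13 ran from -0.15 in the oxozeaenol combination to 0.07 with PD0325901. DLST, the second enzyme of the 2-oxoglutarate dehydrogenase complex, fell with all 5, from 286 ± 16.9 CPM to 184 ± 21.4 with PD0325901 (log2 fold change -0.64, adjusted p 1.09e-06) and 178 ± 11 with PI103 and PD0325901 (-0.69, adjusted p 2.59e-07). OGDH, its partner in the complex, rose with 4 of these treatments and did not pass with PI103, and both of its calls in the combinations were lost without control replicate 2, as given above. DLD, the third enzyme, fell with PI103 (-0.47, adjusted p 2.4e-05). It also fell in the oxozeaenol combination (-0.36, adjusted p 0.000439) and the PD0325901 combination (-0.33, adjusted p 0.000912). DLD was at 0.04 with PD0325901 and at -0.02 with oxozeaenol. OGDHL, a relative of OGDH, rose with all 5 but stayed low, from 0.658 ± 0.298 CPM to 2.66 ± 0.352 with PI103 and PD0325901. SUCLG2 rose with PD0325901 from 101 ± 3.03 to 144 ± 9.50 CPM (0.50, adjusted p 1.13e-05). It also rose with oxozeaenol (0.38, adjusted p 0.000509), in the oxozeaenol combination (0.32, adjusted p 0.00219) and in the PD0325901 combination (0.36, adjusted p 0.000493). With PI103 it did not pass (0.09, adjusted p 0.402). Processed pseudogenes are annotated for DLST (1) and SUCLG2 (2). SDHB, the iron-sulfur subunit of succinate dehydrogenase, fell with PI103 and oxozeaenol from 149 ± 11.4 to 103 ± 3.42 CPM (-0.53, adjusted p 1.78e-05).

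Genes for the entry of pyruvate, 12 of 13 tested (PDK4 was too low), rose and fell as 2 and 4 with PI103, 3 and 3 with PD0325901, 3 and 2 with oxozeaenol, 1 and 4 in the oxozeaenol combination, and 2 and 6 in the PD0325901 combination. In the same order 16.7%, 25%, 25%, 8.33% and 16.7% of the list rose (26.2%, 28.7%, 25.7%, 27.7% and 32.2% of all tested genes), and 33.3%, 25%, 16.7%, 33.3% and 50% fell (25.2%, 29.9%, 26.1%, 27.9% and 32.6%). Their median ran from -0.28 in the PD0325901 combination to 0.08 with PD0325901. The replicate block gave 2 and 6 with PI103, 3 and 4 with PD0325901 and 4 and 2 with oxozeaenol. In the oxozeaenol and PD0325901 combinations it gave 1 and 5, and 3 and 6. The pyruvate dehydrogenase kinases, which switch the pyruvate dehydrogenase complex off, moved apart. PDK1 fell from 26.7 ± 0.996 to 8.33 ± 0.737 CPM with PI103 (log2 fold change -1.68, adjusted p 2.96e-13), while PDK2 rose from 11.1 ± 0.99 to 28 ± 1.11 CPM (1.33, adjusted p 1.35e-11). PDHA1, a subunit of the complex itself, fell with oxozeaenol from 80.6 ± 7.37 to 55.5 ± 4.80 CPM (-0.54, adjusted p 9.05e-06).

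Of 11 genes for glutamine use and for refilling the cycle, 0 rose and 5 fell with PI103, 3 and 5 with PD0325901, 4 and 6 with oxozeaenol, 3 and 6 in the oxozeaenol combination, and 3 and 7 in the PD0325901 combination. The shares that fell were 45.5%, 45.5%, 54.5%, 54.5% and 63.6% (25.2%, 29.9%, 26.1%, 27.9% and 32.6% of all tested genes), and those that rose 0%, 27.3%, 36.4%, 27.3% and 27.3% (26.2%, 28.7%, 25.7%, 27.7% and 32.2%). Their median was below 0 throughout, from -0.26 with oxozeaenol to -0.59 in the PD0325901 combination. In the fit with the replicate block 6 fell with PD0325901 and 7 in the oxozeaenol combination. GOT1, the cytosolic aspartate aminotransferase, fell with all 5, from 148 ± 13.6 CPM to 54.4 ± 6.23 with PD0325901 and 38.5 ± 2.93 with PI103 and PD0325901 (log2 fold change -1.94, adjusted p 1.59e-12). GPT2, the mitochondrial alanine aminotransferase, fell from 145 ± 12 to 29.8 ± 3.02 CPM with PI103 (-2.28, adjusted p 1.31e-12). Its cytosolic relative GPT was near the limit of detection, at 0.126 ± 0.0713 CPM in control and 1.54 ± 0.365 with PD0325901. ME3, a mitochondrial malic enzyme, rose with PI103 and oxozeaenol from 9.84 ± 0.814 to 14.3 ± 0.873 CPM (0.54, adjusted p 3.36e-05).

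Among genes that carry or use citrate and related metabolites, 6 of 7 were tested. Counts of genes that rose and fell were 0 and 1 with PI103, 2 and 2 with PD0325901, 1 and 1 with oxozeaenol, 1 and 2 in the oxozeaenol combination, and 1 and 5 in the PD0325901 combination. Of the 6, 0%, 33.3%, 16.7%, 16.7% and 16.7% rose (26.2%, 28.7%, 25.7%, 27.7% and 32.2% of all tested genes), while 16.7%, 33.3%, 16.7%, 33.3% and 83.3% fell (25.2%, 29.9%, 26.1%, 27.9% and 32.6%). With the replicate block 2 fell with oxozeaenol and 2 rose in the oxozeaenol combination. Their median ran from -0.41 in the PD0325901 combination to 0.14 with oxozeaenol. SLC25A1, the mitochondrial citrate carrier, rose with PD0325901 from 81.4 ± 5 to 173 ± 12.1 CPM (1.09, adjusted p 4.43e-11) and was at 0.14 with PI103 (adjusted p 0.147). SLC25A12, an aspartate and glutamate carrier, fell with PD0325901 from 16.8 ± 2.39 to 3.58 ± 0.999 CPM (-2.22, adjusted p 2.51e-10). ACLY, which splits citrate in the cytosol, was the 1 gene of this list that changed with PI103, by -0.25 (adjusted p 0.0238). D2HGDH, which removes D-2-hydroxyglutarate, a side product of isocitrate dehydrogenases, rose with all 5 treatments, from 7.64 ± 1.20 CPM to 21.4 ± 4.11 with oxozeaenol (1.49, adjusted p 7.66e-09).

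The list of mitochondrial gene regulators held PPARGC1A, PPARGC1B, PPRC1, NRF1, GABPA, GABPB1, ESRRA, TFAM, TFB1M, TFB2M and POLRMT. It is not confined to regulators of nuclear genes. All 11 were tested and mostly fell: 7 under PI103, 8 under PD0325901, 6 under oxozeaenol, 8 in the oxozeaenol combination and 9 in the PD0325901 combination. These are 63.6%, 72.7%, 54.5%, 72.7% and 81.8% of the list, where 25.2%, 29.9%, 26.1%, 27.9% and 32.6% of all tested genes fell. The 1 regulator that rose, with PI103 and in the PD0325901 combination, was PPARGC1A. PPRC1, a coactivator of the PGC-1 family, fell from 81.3 ± 5.48 to 39.5 ± 7.93 CPM with PD0325901 (-1.04, adjusted p 3.38e-08). ESRRA, the nuclear receptor ERR alpha, fell to 21.3 ± 1.82 from 39.1 ± 4.54 CPM with PI103 (-0.88, adjusted p 2.55e-07). PPARGC1A, which codes for the coactivator PGC-1 alpha, was low throughout, at 0.448 ± 0.169 CPM in control and 1.56 ± 0.487 with PI103. The median log2 fold change of the 11 regulators ran from -0.36 with oxozeaenol to -0.88 with PI103 and PD0325901. In the fit with the replicate block 7 fell with oxozeaenol.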

How the data were processed

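Stranded mRNA libraries of 24 AGS cultures were sequenced by the authors, from 0.8 µg of total RNA each, per the labels' protocols. The deposited table holds raw read counts per gene symbol. Per the submitters' processing notes the genome build was GRCh38; aligner, counting program and annotation are not given in the sources used here. The 5 closing tallies of unassigned reads were left out (no feature 4.24% to 8.57%, ambiguous 1.57% to 2.01%, not unique 4.64% to 6.06% of reads). No column belonged to another series (0). Groups came from the sample titles, since the treatment field of later replicates numbers the compound names upward.

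Counts were fitted with edgeR 4.0.16 in R 4.3.3 (TMM, filterByExpr, robust quasi-likelihood F test, two-sided) over all 24 libraries and 6 groups, with 17 contrasts and Benjamini-Hochberg adjustment over 13947 genes in each. The fit assumes 1 spread for all groups (biological coefficient of variation 0.131). The pipeline was tested on simulated data. Ratios used CPM with a prior count of 2. Intervals are 95%. Exon lengths, overlaps and pseudogenes came from GENCODE 29 on GRCh38, whose gene models may differ from those counted, and promoters from RefSeq, GRCh38.p14.

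The 9 members, the lists and the comparisons were chosen with earlier results of these data known. Named by rule were the members, the gene with the smallest adjusted p in each direction in each list and treatment, the genes of the ratios and the gene with the nearest profile to each member; some of these genes are not reported here. MPC1 and MPC2 stand in the table under older symbols. Of the fixed markers, the mitochondrially encoded mRNAs were not analysed here.

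A batch field in the labels equals the replicate number, so numbers pair libraries across groups. Deviations from the group means correlated by 0.120 on average over 60 pairs with the same number (28 of them over 0.1) and by -0.0394 over 180 other pairs. No 2 libraries of a group agreed within sampling noise. Alternatives were DESeq2 1.42.0 size factors or total counts as scaling, no expression filter, the batch as a block, a DESeq2 Wald test, a minimum change of 0.3, only the groups compared, and each library left out in turn.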

Additional observations from a re-analysis of the deposited data

Results flagged for a closer look

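OGDH in PD0325901 replicate 2 stood apart from the other 3 libraries of its group, at 144.8 CPM beside 108 to 113 CPM. Its gap to the nearest library was 0.853 of the group's range, above Dixon's 95% critical value for 4 libraries. It was the 1 such library among the 54 groups of a member and a treatment examined, and chance marks about 1 in 20. The same library was also the highest of its group for ACO1 and IDH2. OGDH passed against control with PD0325901 in each fit that left out 1 library.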

How the results depend on the processing

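Scaling by DESeq2 size factors, a DESeq2 Wald test, the batch as a block and fits of the 2 groups alone kept the counts of members called against control within 1.5 times. Asking for a change beyond 0.3 on the log2 scale lowered them to 5 with PD0325901, 2 with oxozeaenol and 3 with PI103 and oxozeaenol, to 0 and 0 for both combinations against the mean of their single agents, and from 40 to 14 for treatments against each other. How far the counts over all tested genes fell under that test was not computed. With no expression filter, 0 members differed between PI103 with oxozeaenol and the mean of its single agents. Leaving out 1 library at a time gave 0 to 1 members for that comparison and 3 to 5 for PI103 with PD0325901 against its mean. Against control the same fits gave 5 to 6 members with PI103, 7 to 8 with PD0325901, 4 to 6 with oxozeaenol, 6 to 7 with PI103 and oxozeaenol and 8 to 9 with PI103 and PD0325901, and 37 to 43 for treatments against each other. No called value changed sign under any alternative run; 61 of 2259 recomputed member values did, all of them in comparisons that passed neither way and with a log2 fold change of at most 0.0947 in size.

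The replicate block changed no call of a member against control or against the mean of the single agents. Between treatments it raised the count from 40 to 50 with no call lost, and for the pathway lists from 172 to 190. The shares of all tested genes with the block were not computed. For the ratios, an exact sign-flip test of batch differences cannot go below p = 0.125, and an exact permutation test without 1 library cannot go below 0.0571, so neither tests their stability; the ratios kept their sign. Scaling by total counts moved the median of all genes with PI103 and PD0325901 from 0.0050 to 0.13 and the share of risen genes among those called from 49.6% to 59.9%. Depth did not limit the members, whose lowest count was 1322; the 4 libraries per group set the precision. Low genes of the lists (GPT, PPARGC1A, OGDHL) rest on few reads.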
